A study of Mus musculus with 6 samples.

Results

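The EYA genes Eya1, Eya2, Eya3 and Eya4 and the DACH genes Dach1 and Dach2 encode the cofactors that work with the sine oculis homeobox proteins, of which Six2 is a member. They were measured in 4TO7 cells with and without Six2 overexpression. The members are the rows of the deposited value table whose platform annotation names one of these genes alone, which gave 117 of 241576 rows, called probe sets. All 6 genes had such rows, of 20848 genes with at least 1. Eya1 had 20 probe sets, Eya2 19, Eya3 21, Eya4 23, Dach1 19 and Dach2 15. Each gene is represented by the median of its probe sets. The genes were chosen by their place in this pathway and selected on their Six2 against control differences in these same arrays, where Eya1 and Eya2 moved in opposite directions. Their differences are therefore given as a description with no test, and nothing is supported by them.

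Six2 and its relatives bind DNA but depend largely on partners to change transcription. EYA proteins are such partners: the homeobox proteins carry them into the nucleus, where they act as coactivators, and the conserved EYA domain that binds the homeobox protein also has tyrosine phosphatase activity. DACH proteins are relatives of the SKI and SNO corepressors and bind DNA themselves. The network was first worked out in Drosophila eye development, where sine oculis, eyes absent and dachshund act together. In the mouse kidney, Eya1 and Six2 are both needed to keep nephron progenitors.

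4TO7 is a mouse mammary carcinoma line from the same original tumour as the metastatic line 4T1. The control group was 4TO7 transduced with pcDNA, an expression vector, and the Six2 group was 4TO7 transduced for Six2 overexpression, with 3 arrays each. Total RNA from Trizol extraction was labelled with biotin and measured on Affymetrix arrays. The sources used here do not give whether each group was a clone or a pool, whether replicates were separate cultures, or the species and extent of the Six2 insert. The p-values therefore measure only how these arrays scatter, which may be technical. Values are on a log2 scale, where a difference of 1 is a doubling, and signed differences are Six2 minus control.

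The arrays were alike, with a Pearson correlation over genes, which are not independent replicates, of 0.992 to 0.994 within groups and 0.983 to 0.987 between them. Over all genes tested, 14.7% passed limma at an adjusted p under 0.05, 6.70% higher and 8.02% lower in Six2 arrays, and the median difference was -0.05. Six2 itself was dim, at 3.52 ± 0.23 (SD, n = 3) in control and 3.86 ± 0.23 (SD, n = 3) in Six2 arrays, and did not pass (limma adjusted p = 0.215). It passed in 3 of 13 alternatives: with its brightest probe set, where it was 1.19 higher, with averaged probe sets, and with dim rows left out. Its 4 probe sets give a weak check of the labels. Among 6 mammary epithelial markers, Krt8 and Krt18 were bright in both groups while Epcam was low (4.47 ± 0.22 and 3.72 ± 0.42, SD, n = 3), and 5 fell past the threshold, among them Cdh1. The mean level of these 6 markers ranged from 7.90 to 7.97 over control arrays and from 6.42 to 6.53 over Six2 arrays. The means of 4 leukocyte markers (3.60 to 3.85 in control, 3.28 to 3.70 in Six2 arrays) and 4 endothelial markers (3.20 to 3.34 and 3.15 to 3.24) were low throughout, with 2 leukocyte markers lower past the threshold. Of 7 fibroblast markers 1 had a mean above 6, Pdgfra, in both groups, and of 4 myoepithelial markers none did. The part of these marker changes in the values below was not tested.

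Eya1, the coactivator whose loss in humans causes branchio-oto-renal syndrome, was the member with the higher level in Six2 cells. It read 4.71, 4.47 and 4.44 in control replicates 1 to 3 and 6.83, 7.32 and 6.89 in Six2 replicates 1 to 3. The lowest Six2 array lay above the highest control array by more than the range within either group. The means were 4.54 ± 0.15 and 7.02 ± 0.27 (SD, n = 3), a difference of 2.48 (SE 0.15) or 5.57-fold. This was rank 9 among 20848 genes ordered from the largest rise, and rank 1 among the 1179 genes of chromosome 1. In RNA from a whole culture, a larger share of cells with a transcript and more of it in each cell cannot be told apart.

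Eya2, a coactivator and phosphatase of the same family, went the other way, by about the same amount in the median over probe sets. It read 7.64, 7.45 and 7.43 in control replicates 1 to 3 and 5.24, 4.69 and 5.21 in Six2 replicates 1 to 3. All Six2 arrays lay below all control arrays, with Six2 replicate 2 the lowest. The means were 7.51 ± 0.12 and 5.05 ± 0.31 (SD, n = 3), a difference of -2.46 (SE 0.16), so that the level in Six2 cells was 5.51-fold lower. Six2 replicate 2 was the array with both the highest Eya1 and the lowest Eya2. Without it the differences were 2.32 for Eya1 and -2.29 for Eya2. The amounts were less alike with averaged probe sets, at 2.50 and -2.12, and with the brightest probe set, at 2.51 and -1.63. Probe levels of different genes depend on the probes and are not comparable, so these values do not say which of Eya1 and Eya2 was the more abundant.

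Eya3, a coactivator and phosphatase with a described part in the DNA damage response, was bright in both groups and differed little. It read 8.98, 8.75 and 9.04 in control and 8.74, 8.72 and 8.84 in Six2 replicates 1 to 3, and the groups overlapped. The difference was -0.16 (SE 0.11), from means of 8.92 ± 0.15 and 8.77 ± 0.06 (SD, n = 3). The groups were apart, all Six2 arrays lower, with averaged probe sets (-0.22), without control replicate 2 (-0.24) and without Six2 replicate 3 (-0.19), and overlapped in the other 8 alternatives. Its replicate SD of 0.12 was smaller than the median over all genes, 0.159.

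Eya4, whose mutations cause hearing loss in humans, was dim. It read 3.87, 3.87 and 3.47 in control and 3.25, 3.39 and 3.50 in Six2 replicates 1 to 3, so that Six2 replicate 3 lay above control replicate 3. The difference was -0.36 (SE 0.14), from 3.74 ± 0.23 to 3.38 ± 0.12 (SD, n = 3). It was -0.08 with dim rows left out and -0.13 when the probe sets were averaged. The groups were apart, all Six2 arrays lower, after quantile normalization (-0.34), without control replicate 3 (-0.49) and without Six2 replicate 3 (-0.42). They overlapped in the other alternatives.

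Dach1, a corepressor often found at low levels in breast cancers, read 4.41, 3.97 and 3.96 in control and 3.44, 3.92 and 4.34 in Six2 replicates 1 to 3. The Six2 arrays spanned nearly the whole range, and the groups overlapped. The difference was -0.22 (SE 0.24), from 4.12 ± 0.26 to 3.90 ± 0.45 (SD, n = 3), and it was 0.02 without Six2 replicate 1. It was -0.43 without Six2 replicate 3, where all Six2 arrays were lower, and -0.50 with dim rows left out, where the groups overlapped. Dach2, its paralogue on the X chromosome, read 2.47, 2.79 and 2.88 in control and 2.80, 2.93 and 2.19 in Six2 replicates 1 to 3. Its groups overlapped too, and its difference of -0.07 (SE 0.21) turned to 0.15 without Six2 replicate 3. The Dach2 groups were apart, all Six2 arrays lower, with dim rows left out (-0.25) and with its brightest probe set (-0.61). The replicate SDs of Dach1 (0.37) and Dach2 (0.32) lay at the 93.3 and 89.2 percentiles of all genes. With SEs of 0.24 and 0.21, a difference of that size or smaller would hardly show.

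**Figure D1:**
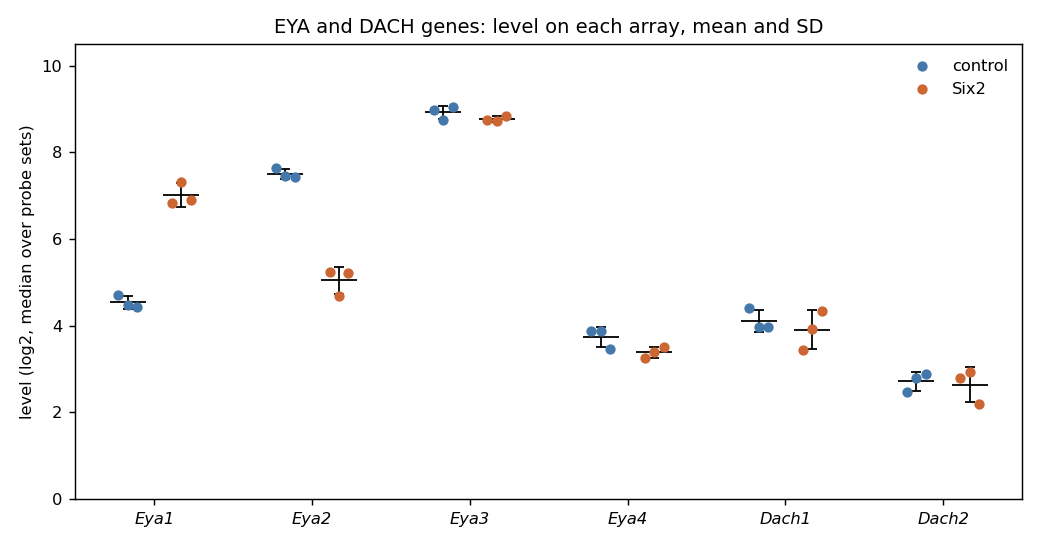
Level of each EYA and DACH gene (log2, median over its probe sets) on the 3 control and 3 Six2 arrays, with points for arrays and bars for the mean and SD. Eya1 goes from a mean of 4.54 to 7.02 and Eya2 from 7.51 to 5.05 with no overlap between groups, while the groups of the other members overlap. Levels of different genes are not comparable.

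At the gene level, groups did not overlap for 1 member above control and 1 below, where 15.7% of all genes lay wholly above and 20.1% wholly below. The same 2 members, Eya1 and Eya2, passed over all genes. The rule used this contrast, so nothing is read from the counts.

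The single probe sets showed how far each gene moved as a whole. Of the 20 probe sets of Eya1, 19 had all Six2 arrays higher than all control arrays and none had the reverse, where 14.6% of all probe sets lay wholly above. Of the 19 of Eya2, 18 lay wholly below, where 15.2% of all probe sets did. Differences of Eya1 probe sets ran from 0.11 to 3.81 with a median of 2.70, and 15 were at least 2. Those of Eya2 ran from -3.29 to 0.07 with a median of -2.10, and 12 were at or below -2. By limma over all rows, 14 of the 20 Eya1 probe sets passed higher (1.20% of all probe sets did) and 15 of the 19 Eya2 probe sets passed lower (1.60% did). The rule used this contrast, so these counts are no test and nothing is read from them. Leaving out control replicate 1, 2 or 3 brought the calls among Eya1 and Eya2 probe sets to 0 each, as it did over the whole table, while leaving out a Six2 array left 4 to 7 for Eya1 and 4 to 10 for Eya2. None of the 78 probe sets of the other 4 members passed.

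The clearest Eya1 probe set was 10353209. It read 5.13, 5.31 and 5.24 in control and 8.84, 8.98 and 8.94 in Six2 replicates 1 to 3, so the groups were 3.69 apart with almost no spread within them. Probe set 10353204 had the largest difference, 3.81, from 3.90 to 7.70. For Eya2, probe set 10478709 had the largest, reading 8.36, 8.48 and 8.25 in control and 5.12, 5.24 and 4.87 in Six2 replicates 1 to 3. The brightest probe set of Eya2, 10478705, read 9.59, 9.46 and 9.30 in control and 7.88, 7.91 and 7.69 in Six2 replicates 1 to 3. Its difference of -1.63 (SE 0.14) was smaller than that of the gene, with no overlap between groups.

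**Figure D2:**
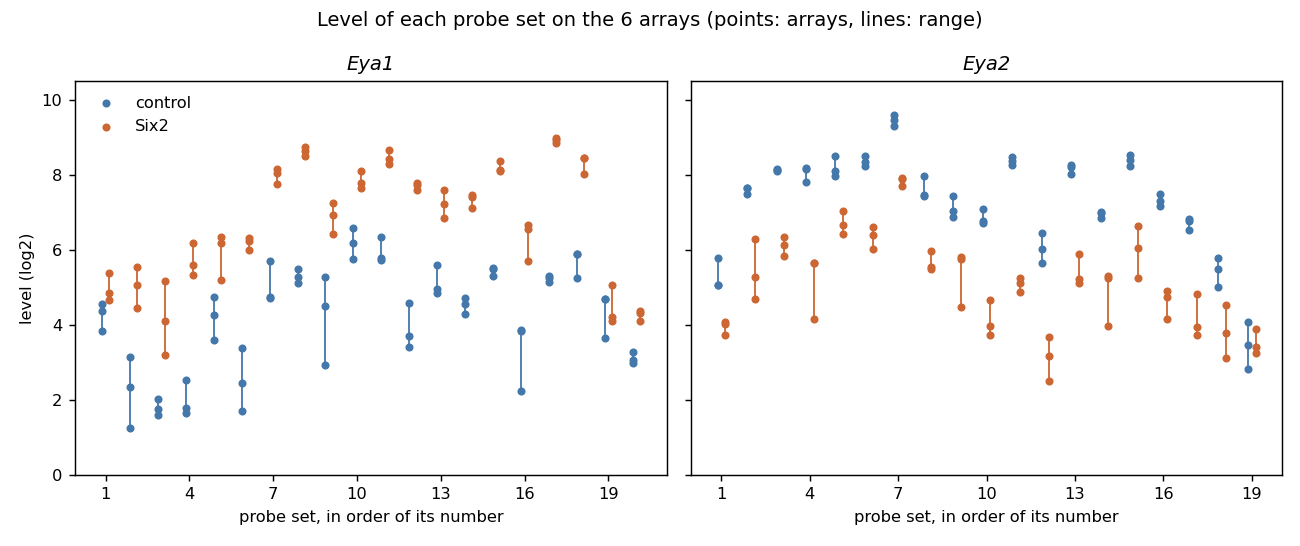
Level (log2) of each probe set of Eya1 and Eya2 in order of its number, with points for the 6 arrays and lines for the range within a group. Six2 arrays lie above control arrays in 19 of 20 Eya1 probe sets and below them in 18 of 19 Eya2 probe sets. Levels of different probe sets are not comparable.

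The probe sets nearest to 0 stood at or next to the end of the number order, though other probe sets at the ends moved as far as their gene. Over genes, probe set numbers followed chromosome position in 96.7% to 99.4% of steps from gene to gene on the 20 chromosomes, so the order of numbers was used in place of position within a gene, which was not given; the direction of transcription was not used. For Eya1, probe set 10353193 at one end differed by 0.70, and 10353211 and 10353212 at the other by 0.11 and 1.16, while 10353194, the second in order, differed by 2.76. Probe set 10353211 read 4.69, 4.69 and 3.66 in control and 5.06, 4.21 and 4.11 in Six2 replicates 1 to 3, the only overlap in Eya1. For Eya2, the last probe set, 10478717, differed by 0.07 and read 2.81, 3.47 and 4.07 in control and 3.41, 3.89 and 3.25 in Six2 replicates 1 to 3. Its neighbour 10478716 differed by -1.62, and the first, 10478699, by -1.35. The second, 10478700, differed by -2.18, and 10478703, further in, by -1.48.

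Taking the outermost 2 probe sets at each end, the median difference was 0.93 in Eya1 against 2.79 in the other 16, and -1.49 in Eya2 against -2.41 in the other 15. This split was chosen after the values were seen and has no test. The end probe sets also read lower. In control arrays their median level was 3.68 against 4.79 in Eya1 and 5.36 against 8.06 in Eya2. In Six2 arrays it was 4.71 against 7.52 in Eya1 and 3.88 against 5.35 in Eya2. The part of the level in these differences was not tested.

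**Figure D3:**
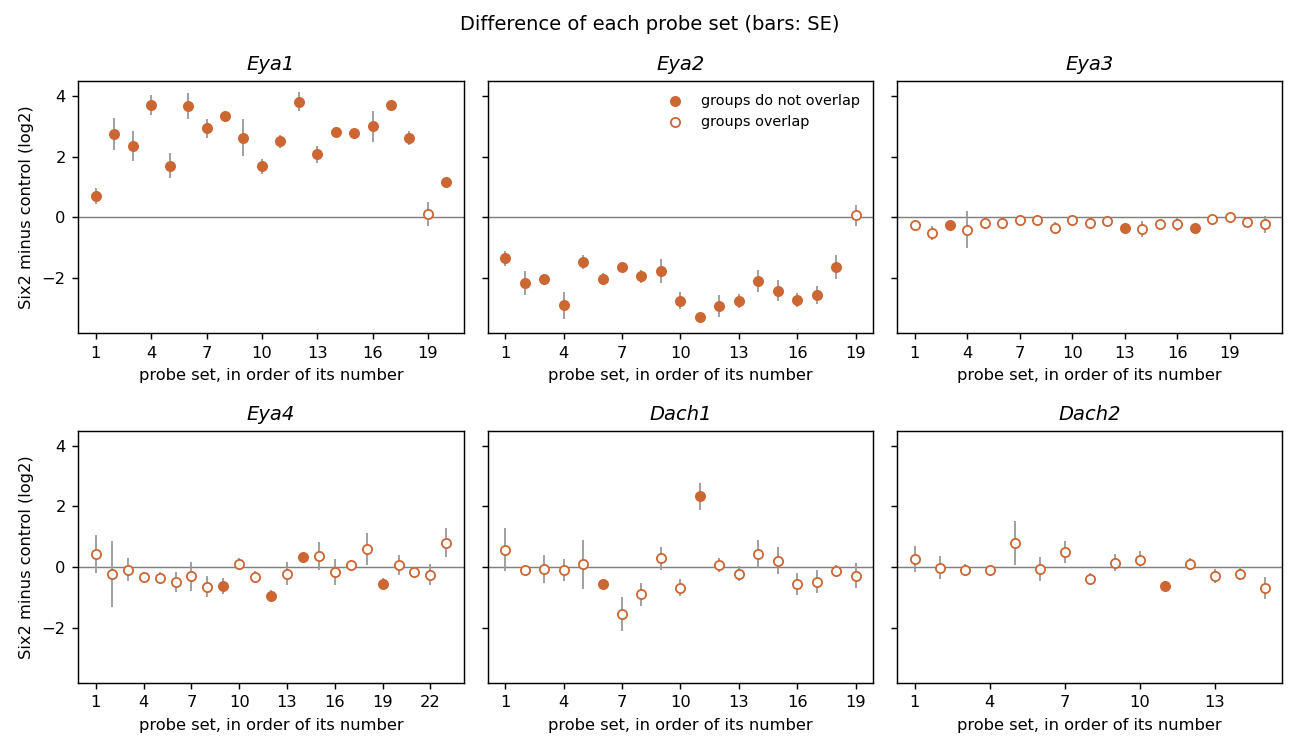
Six2 minus control difference (log2) of each probe set of the 6 genes in order of its number, with the SE as a bar and filled points where the groups do not overlap. Eya1 probe sets lie above 0 and all but the last of Eya2 below it, Eya3 stays within -0.51 to 0.01, and 1 Dach1 probe set stands at 2.33.

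The Eya3 probe sets were close together. Of 21, 20 were slightly lower in Six2 arrays, with a range of -0.51 to 0.01 and a median of -0.22, and 3 lay wholly below control. All 21 had a mean above 3.98, the 30th percentile of all row means, which served as the limit for dim rows. In Eya4 15 of 23 probe sets were lower and 8 higher, from -0.95 to 0.81, and only 7 were above the limit for dim rows. Its groups were apart in 3 probe sets below and 1 above control. Of all probe sets, 15.2% lay wholly below control and 14.6% wholly above. The 3 of 21 in Eya3 and 3 of 23 in Eya4 that lay below were no more than the share below over all probe sets. Dach2 had 2 of 15 probe sets above the limit for dim rows. The brighter, 10601514, was lower in every Six2 array, at 5.94, 6.07 and 5.72 in control and 5.49, 5.26 and 5.15 in Six2 replicates 1 to 3, a difference of -0.61.

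Dach1 held a probe set that stood apart from its gene. Probe set 10421961 read 2.80, 2.32 and 2.30 in control and 4.47, 4.16 and 5.78 in Six2 replicates 1 to 3, a difference of 2.33 (SE 0.44) with no overlap. It did not pass over all rows, and its mean was not above the limit for dim rows. With a variance trend and robust variance 1 Dach1 probe set passed higher, but which one was not recorded. The next in number, 10421962, was the brightest of Dach1 and read 7.88, 8.56 and 8.06 in control and 7.92, 8.28 and 8.51 in Six2 replicates 1 to 3, a difference of 0.07. The lowest, 10421957, differed by -1.55 and read 5.53, 5.52 and 4.89 in control and 2.81, 3.47 and 5.0 in Six2 replicates 1 to 3, where Six2 replicate 3 lay within the control range. Of the 19 Dach1 probe sets, 17 had overlapping groups, 12 differences were below 0 and 7 above.

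Eya1 lies on chromosome 1, where many genes were higher in Six2 arrays: 304 of 1179 passed higher (25.8%) and 42 lower (3.56%). The median difference there was 0.44 over 497 genes with a mean above 6, and 0.32 over 182 genes within 1 log2 unit of the mean level of Eya1. The difference of Eya1, 2.48, was well above both. Eya2 lies on chromosome 2, where the median was -0.07 over 739 genes with a mean above 6, and its difference was rank 3 from the largest fall among 1789 genes. The chromosome medians of the other members ranged from -0.07 on chromosome 4 to 0.17 on chromosome 10. The part of the chromosome shift in Eya1 was not tested.

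Few of the genes next to the members passed. Of the 3 nearest protein-coding genes on either side of each member, 36 in all, 2 rose, 0 fell and 34 did not pass by limma over all genes, where 14.7% of all genes passed. Near Eya1, Lactb2, a mitochondrial endoribonuclease and the second gene on one side, rose from 8.19 ± 0.20 to 8.91 ± 0.06 (SD, n = 3), by 0.72 (SE 0.12, limma adjusted p = 0.00953). Between it and Eya1 lies Xkr9, at 2.51 in control and 2.34 in Six2 arrays, and further out lies Tram1, a translocation protein of the endoplasmic reticulum, which differed by 0.26 (SE 0.08, limma adjusted p = 0.0778). On the other side lie the transcription factor gene Msc (0.03), the ion channel gene Trpa1 (-0.36) and the potassium channel gene Kcnb2 (-0.02). These were dim, with means under 4 in both groups, where a fall has little room to show. The part of these low levels in the differences was not tested.

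Next to Eya2, Zmynd8, a reader of histone marks, was at 8.04 in control and 8.03 in Six2 arrays. Beyond it, the nuclear receptor coactivator gene Ncoa3 differed by -0.14 (SE 0.08, limma adjusted p = 0.311) and the heparan sulfate editing enzyme gene Sulf2 by -0.49 (SE 0.14, limma adjusted p = 0.0534), which passed in 4 of 13 alternatives. On the other side, Slc2a10 (-0.05), Slc13a3 (0.10) and Ocstamp (-0.18) had means under 5 in both groups and did not pass. The other neighbour that rose was Slc18b1, a polyamine transporter gene near Eya4, from 3.47 ± 0.41 to 5.28 ± 0.19 (SD, n = 3), by 1.80 (SE 0.21, limma adjusted p = 0.00304). It was at 0.51 with its brightest probe set, still past the threshold. The count of neighbours that passed was 5 with the mean of the probe sets, 4 after quantile normalization and 7 with a variance trend and robust variance.

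**Figure D4:**
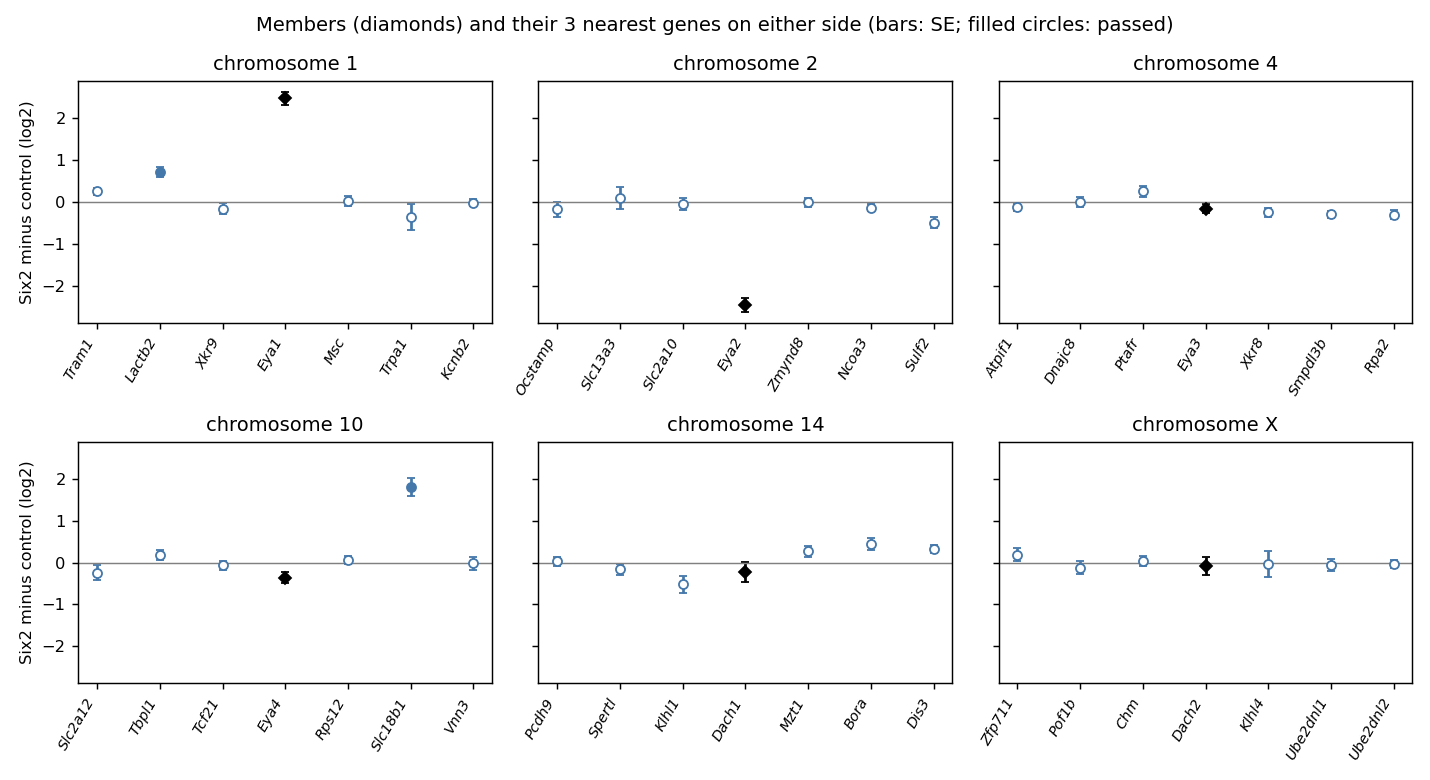
Six2 minus control difference (log2, SE as a bar) of each member, as a diamond, and of the 3 nearest protein-coding genes on either side in chromosome order, filled where limma passed over all genes. Eya1 at 2.48 and Eya2 at -2.46 stand apart from their neighbours, of which Lactb2 at 0.72 passed. Slc18b1 near Eya4 is at 1.80.

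The genes whose course over the 6 arrays was nearest to that of Eya1 were Lipg, Ppargc1a, Il33, Cdh19 and Ndp. Likeness was the Euclidean distance between log2 values after the mean of each gene was taken off, over genes with at least 3 probe sets and without predicted genes. The distances ran from 0.427 for the lipase gene Lipg to 0.678 for Ndp, a Wnt pathway ligand gene, against 3.06 from Eya1 to a flat course. Their differences were 2.30 for Lipg, 2.36 for the coactivator gene Ppargc1a, 2.76 for the cytokine gene Il33, 2.24 for Cdh19, a cadherin gene, and 2.66 for Ndp. With their brightest probe sets Il33 was at 1.24, Ppargc1a at 1.5, Lipg at 2.48, Ndp at 2.63 and Cdh19 at 3.26. They were picked for likeness to Eya1 on these arrays, so passing the threshold would say nothing further.

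Nearest to Eya2 were Adgre5, Jup, Aqp8, Krt7 and Tnxb, at distances of 0.164 to 0.427 against 3.05 to a flat course. Adgre5, an adhesion receptor gene, read 6.31 ± 0.09 in control and 3.91 ± 0.36 (SD, n = 3) in Six2 arrays. With their brightest probe sets, Adgre5 was at -0.56, Jup at -2.82, Aqp8 at -2.58, Krt7 at -2.63 and Tnxb at -1.71. The differences were -2.41 for Adgre5, -2.68 for Jup, the junction protein plakoglobin, -2.47 for the water channel gene Aqp8, -2.27 for the simple epithelial keratin gene Krt7 and -2.29 for the matrix gene Tnxb. These genes were picked for likeness, so their values are a description with no test.

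Of the genes in the rest of the pathway that passed, most were lower in Six2 arrays, and calls over all genes also leaned lower. Of 57 measured genes in 6 lists, 2 rose, 11 fell and 44 did not pass by limma over all genes, that is 22.8% against 14.7% of all genes. By direction, 6.70% of all genes passed higher and 8.02% lower. The lists were chosen with earlier results of these data known, so the counts are a description. Their median difference was -0.08, against -0.05 over all genes. The lists hold the sine oculis homeobox family, PAX partners, SKI and SNO relatives, corepressors linked to DACH, EYA partners outside this transcription complex, and genes reported as targets. The count of 13 fell to 7 without control replicate 1 or 3 and to 8 without control replicate 2 or Six2 replicate 2 or 3. It rose to 16 with averaged probe sets and to 15 with dim rows left out or with a variance trend and robust variance.

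Among the sine oculis homeobox genes, the DNA-binding side of the complex, Six4 rose and Six5 fell, and Six2, Six3 and Six6 did not pass. Six4 went from 7.51 ± 0.14 to 8.19 ± 0.10 (SD, n = 3), which is 0.67 higher (SE 0.11, limma adjusted p = 0.00879). Six5 went from 6.33 ± 0.12 to 5.52 ± 0.09 (SD, n = 3), by -0.81 (SE 0.10, limma adjusted p = 0.00388). Both passed in all 13 alternatives. Of the 8 PAX partners, transcription factors that act with this family and EYA in several organs, 0 passed, and all had means of 6 or lower. Pax9 had the largest difference, 0.60 (SE 0.17, limma adjusted p = 0.0632). It passed in 3 of 13 alternatives: with a replicate block, which leaves its difference as it is, after quantile normalization and with its brightest probe set. Its direction rests on the probe sets used: it was at -0.99 with its brightest probe set, where it passed lower, and at 0.00685 with averaged probe sets. Pax7 also passed with its brightest probe set, at -0.73.

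None of the 4 SKI and SNO relatives of DACH passed, and their differences ran from -0.37 for Skor1 to 0.11 for Skil. Skor1 was at -1.04 with its brightest probe set, where it passed. Of 10 corepressors linked to DACH or acting as Groucho proteins, 1 rose and 3 fell (40.0%, where 14.7% of all genes passed). The 3 that fell were Groucho genes: Tle4 at -0.66 (SE 0.13, limma adjusted p = 0.0151), Tle1 at -0.48 (SE 0.11, limma adjusted p = 0.0336) and Tle2 at -0.78 (SE 0.20, limma adjusted p = 0.0388). Tle2 was at 0.61 with its brightest probe set, which turns its direction. The fourth Groucho gene, Tle3, differed by 0.14 (SE 0.09) and did not pass. Sin3b, a scaffold of histone deacetylase complexes, rose by 0.36 (SE 0.09, limma adjusted p = 0.0439), a call lost in 10 of 13 alternatives. The calls of Tle1, Tle2 and Tle4 were lost in 7, 8 and 3 of 13.

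Of 8 partners of EYA outside that complex, 1 passed (12.5%), no more than the 14.7% over all genes. H2ax, the histone variant that EYA phosphatases act on after DNA damage, fell by 0.48 on the log2 scale, from 9.42 ± 0.02 to 8.94 ± 0.14 (SD, n = 3; SE 0.10, limma adjusted p = 0.0216). It rests on 1 probe set, and its call was lost in 5 of 13 alternatives. Baz1b, the kinase that marks H2AX on the same tyrosine, differed by 0.13 (SE 0.09), and Mdc1, which binds phosphorylated H2AX, by -0.17 (SE 0.09); neither passed. Mdc1 was at -0.48 with averaged probe sets, where it passed (limma adjusted p = 0.00416).

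Of 22 genes reported as targets of this family, EYA or DACH in other systems, 0 rose, 6 fell and 16 did not pass. That is 27.3% against 14.7% of all genes, of which 6.70% passed higher and 8.02% lower. This list too was chosen with earlier results known, so the count is a description. Cxcl5, a chemokine gene, had the largest fall, at -1.40 (log2), from 5.98 ± 0.09 to 4.58 ± 0.48 (SD, n = 3; SE 0.23, limma adjusted p = 0.00888). Ezr, which encodes the membrane linker ezrin, went from 10.26 ± 0.03 to 9.55 ± 0.01 (SD, n = 3), by -0.70 (SE 0.08, limma adjusted p = 0.00261). It lies on chromosome 17, where the median difference of genes with a mean above 6 was -0.26. Other genes that passed also lay on shifted chromosomes. The same median was 0.22 on chromosome 12 (Six4), 0.18 on 8 (Sin3b, Vegfc), -0.18 on 19 (Tle4) and 0.17 on 10 (Tle2). Vegfc and Tle2 went against the shift of their chromosome. The part of these shifts in the differences was not tested. Tgfbr1, a TGF-beta receptor gene, differed by -0.53 (SE 0.08, limma adjusted p = 0.00684), and Neurog1, a proneural factor gene, by -0.90 (SE 0.12, limma adjusted p = 0.00439). The other 2 that fell were Slc12a2, an ion cotransporter gene, and Vegfc, a lymphatic growth factor gene.

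The calls of Cxcl5 and Ezr held in all 13 alternatives. That of Tgfbr1 was lost with its brightest probe set, that of Neurog1 with dim rows left out as well as with its brightest probe set, that of Slc12a2 in 6 of 13 and that of Vegfc in 5 of 13. The bright targets Ccnd1 (12.11 in control and 12.13 in Six2 arrays), Myc (9.51 and 9.47) and Gata3 (9.79 and 9.83) differed by less than 0.05. Jun, another bright target, read 9.26 ± 0.01 in control and 9.45 ± 0.14 (SD, n = 3) in Six2 arrays. All its Six2 arrays lay above the control arrays, by 0.19 on average (SE 0.10, limma adjusted p = 0.258), which does not pass. The developmental targets Gdnf, Sall4, Myod1 and Fgf10 had means under 4 in both groups and did not pass, though Fgf10 did at -0.77 with dim rows left out, and Myog, also dim, passed in 3 of 13 alternatives.

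**Figure D5:**
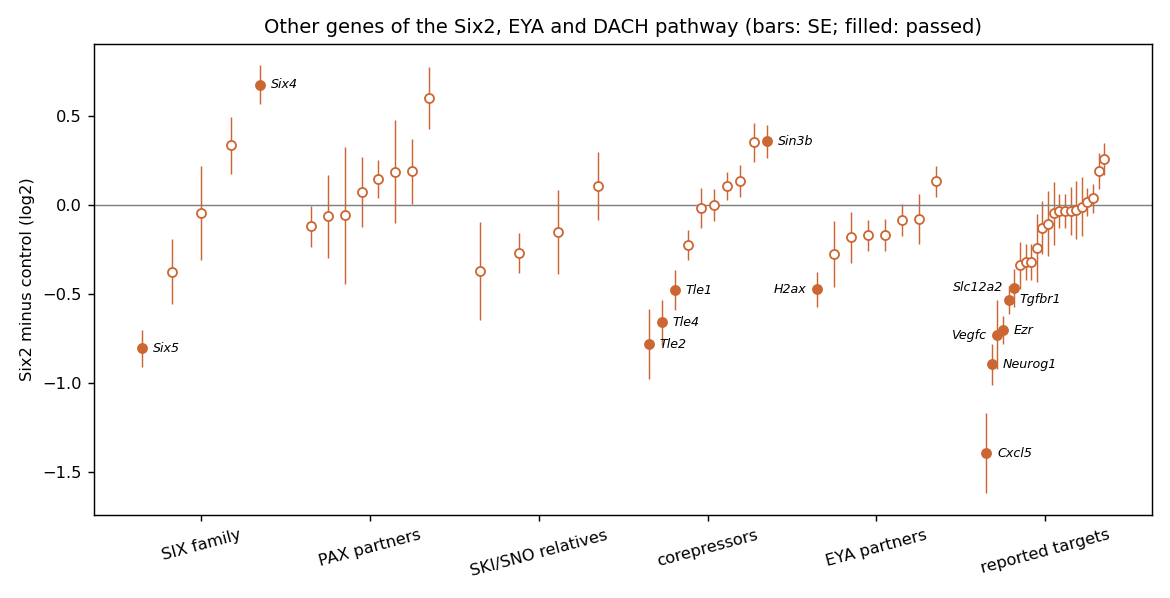
Six2 minus control difference (log2, SE as a bar) of 57 other genes of the Six2, EYA and DACH pathway by list, filled and named where limma passed over all genes. Filled points lie between -1.40 for Cxcl5 and 0.67 for Six4, with 11 below 0 and 2 above.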

How the data were processed

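Per the submitters' processing notes, the authors used RMA in Affymetrix Power Tools, and the deposited table holds log2 values. RMA corrects the background, makes the distributions of the arrays alike and summarises probes, so a change in total RNA is not visible and differences of dim genes are compressed. The sources used here give no versions or build, and no batch information or detection calls were used. The number of arrays, 3 per group, limits the precision.

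Names came from the platform annotation (213361 rows with 1 gene symbol, 5107 with several, 23108 with none). Of 20893 symbols, 2354 were updated through the RefSeq gene table (GRCm38.p6) and 43 were not in it. That table also gave chromosomes and neighbouring genes. No coordinates are printed, since the build of the array is unknown here, and no sequences of Eya1 or Eya2 were used here.

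Groups came from the sample titles. Genes, as the median of their probe sets, and single probe sets were compared with limma 3.58.1 (lmFit, eBayes, two-sided) in R 4.3.3, without a filter, and passed at a Benjamini-Hochberg adjusted p under 0.05 over all features of the table. The fit was tested on simulated data with known changes. SE is limma's moderated standard error, and n = 3 for each SD.

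The members, lists and tests were chosen with earlier results of these data known. Named were all members, up to 4 passing genes per list and direction, the neighbours of Eya1 and Eya2, any passing neighbour of the others, and the 5 genes nearest in course to Eya1 and to Eya2. Some listed genes are not reported here. Others were named as examples after their values were seen. Alternatives were the mean or brightest probe set, a filter that drops rows up to the 30th percentile of mean value, a replicate block, centring, quantile normalization, a variance trend with robust variance, and leaving out each array.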

Additional observations from a re-analysis of the deposited data

How the results depend on the processing

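Eya1 stayed higher and Eya2 lower, with no overlap between groups, in each of the 11 alternatives run on them. Without single arrays Eya1 ranged from 2.323 to 2.568 and Eya2 from -2.558 to -2.285. Eya1 was at 2.707 with dim rows left out, and Eya2 was at -2.123 with averaged probe sets and at -1.626 with the brightest. Eya4 was at -0.126 with averaged probe sets, -0.0857 with the brightest and -0.0761 with dim rows left out, and Dach2 was at -0.609 with its brightest. Over all genes, 3068 passed as reported, 4858 with averaged probe sets, and 1565 to 2447 without single arrays. Over all probe sets, 6756 passed as reported, 13965 with dim rows left out, 20133 with a variance trend and robust variance, and 0 to 1206 without single arrays (0 without any control array). Pathway genes numbered 13 as reported and 7 to 9 without single arrays. They numbered 16 with averaged probe sets and 15 with dim rows left out or the variance trend. Neighbouring genes numbered 2 as reported, 5 with the mean of the probe sets, 4 after quantile normalization, 7 with the variance trend and 2 to 3 without single arrays. With a replicate block, 1828 genes, 0 probe sets, 9 pathway genes and 2 neighbours passed. The values showed no pairing by replicate number: deviations of same-numbered arrays correlated at -0.00635, -0.00842 and -0.0537, and 0 of 3 control arrays correlated best with their own number. With so few arrays this cannot exclude a pairing, and how the replicates were made is not given. The cause of these moves was not tested.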
